A study of Mus musculus with 6 samples.

Results

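The genes described are 9 members of the BCL2 and caspase pathway of apoptosis in adult mouse hippocampus: the inhibitors Bcl2, Bcl2l1 and Mcl1, the effectors Bax and Bak1, the BH3-only genes Bcl2l11 and Bbc3, and the apoptosome genes Apaf1 and Casp9. They were found by gene symbol among the 25896 symbols of the deposited transcript tables, and each was represented by the transcript with the highest mean count over the 6 libraries. Messenger RNA was sequenced from male C57BL/6 mice that were 3 months old, all homozygous for floxed Dicer1 and all killed 3 weeks after tamoxifen. The DICER1-ifKO animals additionally had the transgene CaMKIIa-creERT2, in which a promoter of forebrain excitatory neurons drives a Cre that tamoxifen activates through its estrogen receptor domain. WT mice carried no Cre, so the loss of Dicer1 and the presence of the active recombinase cannot be told apart. Each group had 3 libraries, each from the pooled RNA of 3 mice, or 9 mice per group in these libraries. The tissue was whole hippocampus, in which glia, vessels and inhibitory neurons also contribute RNA, and fewer cells of a type cannot be told apart from less RNA per cell.

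In the mitochondrial pathway of apoptosis, BCL2, BCL-XL (the product of Bcl2l1) and MCL1 hold the effectors BAX and BAK in check on the outer mitochondrial membrane. BH3-only proteins, among them BIM (the product of Bcl2l11) and PUMA (the product of Bbc3, a p53 target), bind the inhibitors or the effectors and favour pore formation. Cytochrome c then leaves the mitochondria and assembles with APAF1 into the apoptosome, which activates the initiator caspase CASP9. Dicer cuts microRNA precursors into mature microRNAs, which pair through bases 2 to 8, the seed, with sites in 3′ UTRs and lower the stability or translation of the mRNA. Several members, Bcl2, Mcl1 and Bcl2l11 among them, are known microRNA targets in other tissues.

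The 3′ UTRs of the 9 genes were searched for the 7-base complements of the seeds of 21 microRNA families, because these are the sequences through which Dicer products could act on them. The families were chosen for abundance in brain or for reported links to these genes, so the number of matches is not independent of that choice. miR-124 was also chosen but was not searched, because the microRNA reference used held no sequence for it. Mature sequences are those of RefSeq (GRCm38.p6), with the seed in capitals. The miR-29 seed matched the most members, and its 6 matches lay in 5 genes, Mcl1, Bak1, Bcl2l11, Bbc3 and Apaf1. Capitals in the UTR sequences (GRCm38, GENCODE release M21, transcript strand) mark the 7 bases TGGTGCT that pair with that seed.
miR-29a-3p: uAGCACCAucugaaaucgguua
Mcl1 3′ UTR, chr3:95661847-95661870, plus strand: gagtcttaaccaTGGTGCTattca
Bak1 3′ UTR, chr17:27020732-27020755, minus strand: cccaacattgcaTGGTGCTactga
Bcl2l11 3′ UTR, chr2:128158401-128158424, plus strand: atgtccctctctTGGTGCTgcgac
Bbc3 3′ UTR, chr7:16317538-16317561, plus strand: aggaaaggctgcTGGTGCTggctg
Bbc3 3′ UTR, chr7:16317623-16317646, plus strand: gcctcaggccccTGGTGCTtcccc
Apaf1 3′ UTR, chr10:90990021-90990044, minus strand: tttacttctttaTGGTGCTgaaga
The same 7 bases were present in 14.3% of the 3′ UTRs of 13666 tested genes, and, among UTRs within 20% of the member's length, in 21.5% for Mcl1, 11.0% for Bak1, 36.4% for Bcl2l11, 9.16% for Bbc3 and 19.3% for Apaf1.

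The seed shared by miR-25, miR-32 and miR-92 matched 4 members, Mcl1, Bak1, Bcl2l11 and Casp9, and is shown because it was the rarest of the 4 seeds found in 4 or more members (7.34% of all UTRs). Capitals mark its seed and the complement GTGCAAT.
miR-25-3p: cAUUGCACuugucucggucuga
Mcl1 3′ UTR, chr3:95660824-95660843, plus strand: ccttgtgaGTGCAATagggg
Bak1 3′ UTR, chr17:27019815-27019838, minus strand: tggaaataaactGTGCAATgcccc
Bcl2l11 3′ UTR, chr2:128161162-128161185, plus strand: ccaaatgtctctGTGCAATtgtgt
Bcl2l11 3′ UTR, chr2:128162437-128162460, plus strand: gccactgtacctGTGCAATactgc
Casp9 3′ UTR, chr4:141813871-141813894, plus strand: aagaagaccggaGTGCAATggatg
Among UTRs of like length, this motif was present in 11.8% for Mcl1, 5.34% for Bak1, 18.4% for Bcl2l11 and 11.2% for Casp9. In Mcl1 the match began 9 bases after the stop codon, and the sequence shown starts at the first base of the UTR.

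The other seeds matching 4 members were those of miR-24 (Bcl2l1, Bak1, Bcl2l11 and Bbc3; 17.9% of all UTRs) and miR-125 (Bcl2, Mcl1, Bak1 and Casp9; 14.5%). Among UTRs of like length, the miR-24 motif was present in 20.3% for Bcl2l1, 17.1% for Bak1, 38.8% for Bcl2l11 and 14.6% for Bbc3. For the miR-125 motif the shares were 35.0% for Bcl2, 23.5% for Mcl1, 12.2% for Bak1 and 22.8% for Casp9. In Bak1 the miR-125 and miR-24 matches began at bases 608 and 618 of the UTR, and the sequences shown, with the match in capitals, overlap each other.
Bak1 3′ UTR, miR-125 match, chr17:27020312-27020335, minus strand: ggcggctggactCTCAGGGattct
Bak1 3′ UTR, miR-24 match, chr17:27020302-27020325, minus strand: ctctcagggattCTGAGCCcagag
Bax, whose UTR of 165 bases was the shortest, had a single match, to the seed of miR-34 and miR-449, at base 8.
Bax 3′ UTR, miR-34 match, chr7:45461843-45461861, minus strand: ggcctccCACTGCCttgga
Of 648 UTRs of like length, 2.47% held this motif, beside 16.5% of all UTRs.

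Over all families, 64 matches were found, and the number of families with a match varied with UTR length. Bcl2l11 had matches to 12 of 21 families in a UTR of 4218 bases, against a median of 7 in UTRs of like length. Bcl2, with the longest UTR at 5086 bases, had 8, equal to the median of its like-length UTRs. Mcl1 had 8 (like-length median 4), Bak1 6 (2), Casp9 6 (4), Bbc3 4 (2), Apaf1 4 (4), Bcl2l1 3 (3) and Bax 1 (0). A match is a run of letters and was not tested as a site of binding, and microRNA levels were not analysed here. The motifs of miR-27 and miR-128 overlap in their letters, so 1 stretch can count for both. None did here, as the miR-27 matches lay in Bbc3 and Apaf1 and the miR-128 matches in Bcl2, Bak1 and Bcl2l11.

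**Figure D1:**
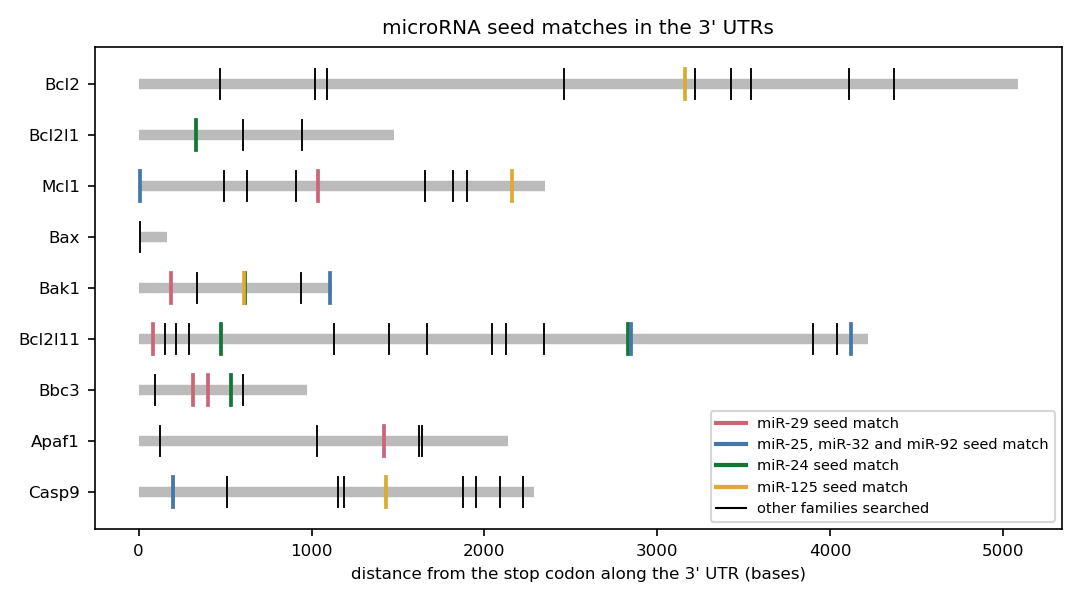
Position of every seed match along the 3′ UTR of each gene, as distance from the stop codon in bases; grey bars are the UTRs and coloured ticks the 4 families found in 4 or more members. The miR-24 and miR-125 matches of Bak1, at bases 618 and 608, almost coincide, and the single match of Bax lies at base 8.

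None of the 9 genes differed between DICER1-ifKO and WT at an adjusted p below 0.05. The edgeR quasi-likelihood test, adjusted by Benjamini-Hochberg over 17405 genes, called 28 of them (0.161%), 22 higher (0.126%) and 6 lower (0.0345%) in DICER1-ifKO. All 9 had enough reads to be tested, and their adjusted p ranged from 0.421 to 0.987. By the same edgeR test, 2 of 9 had an unadjusted p below 0.05, Bak1 (higher in DICER1-ifKO) and Mcl1 (lower), beside 10.4% of all genes. DESeq2 gave 0 genes at an unadjusted p below 0.05, and its filter on mean count left an adjusted p for 1 of the 9, Bcl2l1 (0.650). In 3 of 9 genes the groups did not overlap, Bak1 upward and Bcl2l1 and Mcl1 downward, beside 16.1% of all genes (7.99% upward and 8.08% downward). Log2 fold changes (DICER1-ifKO against WT) were positive in 4 genes and negative in 5, with a median of -0.01, beside 49.0% positive and a median of -0.0032 over all genes tested. The highest upper limit of any member's 95% interval corresponded to a 1.37-fold change.

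**Figure D2:**
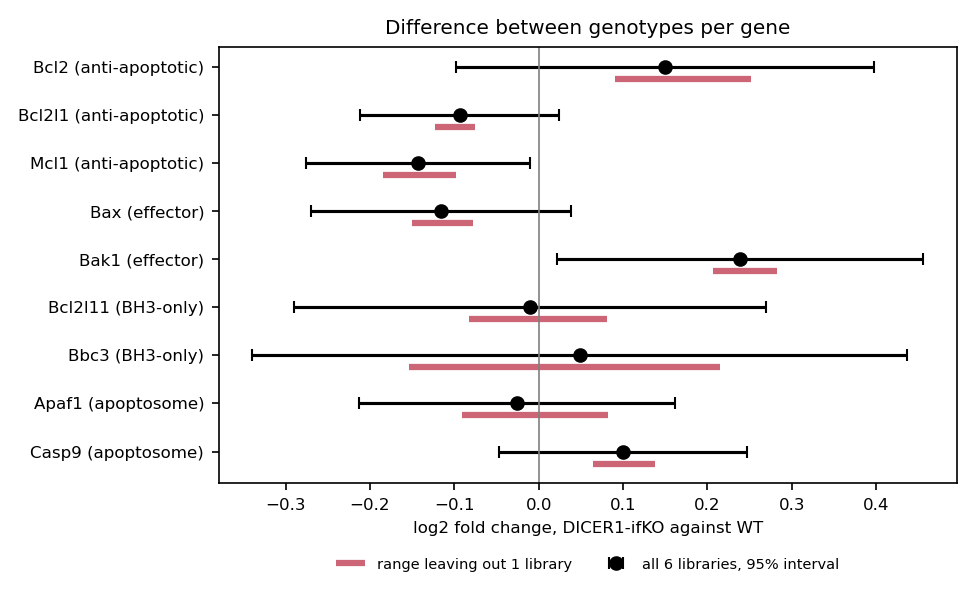
Log2 fold change of each gene in DICER1-ifKO against WT (x axis) with its 95% interval from edgeR (black) and the range when each of the 6 libraries is left out in turn (red). The intervals of Bak1 (0.02 to 0.46) and Mcl1 do not reach 0 before adjustment for multiple tests, and those of the other 7 genes include it.

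Of the inhibitors, Mcl1 had the lowest unadjusted p. MCL1 is a short-lived protein whose loss sensitizes many cell types to death. Its transcript Mcl1-201 (chr3:95658721-95663176, plus strand) was at 50.5, 46.5 and 45.3 CPM (counts scaled to library size after TMM) in WT replicates 1, 2 and 3 and at 41.4, 45.3 and 41.8 in DICER1-ifKO. All DICER1-ifKO values lay below all WT values, but the highest of the former and the lowest of the latter both rounded to 45.3. The means were 47.4 ± 2.71 and 42.8 ± 2.15 CPM (SD, n = 3 each). The log2 fold change was -0.14 with an SE of 0.06 (edgeR adjusted p = 0.442), or -9.41%, with a 95% interval from -17.4% to -0.668%. Its unadjusted p stayed below 0.05 in 3 of 6 fits that left out 1 library and in 6 of 8 other alternatives. Without WT replicate 1 the log2 fold change was -0.098 (edgeR unadjusted p = 0.154), and with sums over transcripts -0.10 (0.194). Its counts were 593 to 738 in WT and 638 to 855 in DICER1-ifKO. A shorter Mcl1 transcript, Mcl1-202, ends at base 95660823, where the coding part ends, so that it lacks the UTR that holds the matches printed above. Its log2 fold change was 0.09 (SE 0.12, edgeR adjusted p over transcripts 0.850) beside -0.16 (SE 0.07, adjusted p = 0.462) for Mcl1-201 in the same transcript fit. The transcripts share reads, and the difference between them was not tested.

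Bcl2l1, which encodes BCL-XL, a main survival factor of neurons, was read at the highest CPM of the 9 genes. Bcl2l1-001 (chr2:152780668-152831728, minus strand) was at 56.3, 55.8 and 52.7 CPM in WT and at 50.1, 52.5 and 51.6 in DICER1-ifKO. The groups did not overlap, but the highest DICER1-ifKO value was within 1% of the lowest WT value. The means were 54.9 ± 1.93 and 51.4 ± 1.22 CPM (SD, n = 3 each), a log2 fold change of -0.09 (SE 0.06, edgeR adjusted p = 0.614), or -6.28% with an interval from -13.7% to 1.72%. Its 9 listed transcripts, which share exons, had log2 fold changes from -0.15 to -0.04, with no adjusted p below 0.563.

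Bcl2 itself, the founding inhibitor of the family, was at a lower level and more variable. Bcl2-001 (chr1:106538178-106714274, minus strand) was at 10.5, 8.43 and 8.30 CPM in WT and at 8.96, 10.5 and 10.3 in DICER1-ifKO. WT replicate 1 was as high as the highest DICER1-ifKO library, and the groups overlapped. The means were 9.07 ± 1.22 and 9.92 ± 0.835 CPM (SD, n = 3 each), a log2 fold change of 0.15 (SE 0.12, edgeR adjusted p = 0.724), or 10.9% with an interval from -6.59% to 31.7%. Leaving out 1 library moved the log2 fold change of Bcl2 between 0.090 (without WT replicate 3) and 0.25 (without WT replicate 1), with an edgeR adjusted p no lower than 0.598. In 558 bases, 7.76% of its length, Bcl2-001 overlaps D630008O14Rik on the opposite strand, and since the strand setting of the counting is not given, reads of such pairs cannot be told apart.

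The log2 fold changes of the effectors had opposite signs, and neither passed the test. Bak1, whose product is always resident on the mitochondrial membrane, had the lowest p of the 9 genes. Bak1-001 (chr17:27019810-27029009, minus strand) was at 9.36, 9.13 and 10.02 CPM in WT and at 10.7, 11.5 and 11.4 in DICER1-ifKO. Every DICER1-ifKO library was above every WT library. The means were 9.50 ± 0.465 and 11.2 ± 0.440 CPM (SD, n = 3 each). The log2 fold change was 0.24 with an SE of 0.10 (edgeR adjusted p = 0.421), or 18% with an interval from 1.497% to 37.2%. Its unadjusted p stayed below 0.05 in 2 of 6 fits that left out 1 library and in 7 of 8 other alternatives. The Bak1 values rest on 110, 145 and 163 counts in WT and 165, 208 and 233 in DICER1-ifKO. Over 614 bases, 25.7% of its length, Bak1-001 overlaps exons of Ggnbp1 on the opposite strand. Ggnbp1 was at 31.1 ± 0.805 CPM in WT and 34.7 ± 2.78 in DICER1-ifKO (SD, n = 3 each; log2 fold change 0.15, SE 0.07, edgeR adjusted p = 0.460), and its part in the Bak1 value was not tested. The other listed Bak1 transcripts had log2 fold changes from 0.10 to 0.42, the highest in Bak1-003, with 24, 43 and 58 counts in WT and 58, 62 and 86 in DICER1-ifKO (SE 0.20, edgeR adjusted p = 0.523). Bak1-002, annotated as subject to nonsense-mediated decay and not as protein coding, had 108, 139 and 157 counts in WT and 156, 191 and 220 in DICER1-ifKO. Transcripts of a gene share reads, so the Bak1-001 values cannot be taken as protein-coding mRNA alone.

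Bax, the effector that moves from the cytosol to mitochondria and on which neuronal apoptosis depends, had the highest level per kilobase. Bax-201 (chr7:45461695-45466898, minus strand) was at 26.5, 25.1 and 27.3 CPM in WT and at 22.9, 24.5 and 25.3 in DICER1-ifKO. The groups overlapped through WT replicate 2 and DICER1-ifKO replicate 3. The means were 26.3 ± 1.10 and 24.2 ± 1.24 CPM (SD, n = 3 each), a log2 fold change of -0.12 (SE 0.07, edgeR adjusted p = 0.638), or -7.71% with an interval from -17.0% to 2.69%. Bax-201 shares 192 bases, 22.1% of its length, with Gm45808 on the same strand, and reads there cannot be told apart.

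Both BH3-only genes were the least abundant by CPM. Bcl2l11-001 (chr2:128126039-128162547, plus strand), the BIM transcript with seed matches to 12 families, was at 6.13, 6.23 and 5.96 CPM in WT and at 6.23, 6.66 and 5.37 in DICER1-ifKO. The DICER1-ifKO libraries held both the highest and the lowest value. The means were 6.11 ± 0.134 and 6.09 ± 0.657 CPM (SD, n = 3 each), a log2 fold change of -0.01 (SE 0.13, edgeR adjusted p = 0.987), or -0.695% with an interval from -18.2% to 20.6%. Of its 8 listed transcripts, 4 were tested, with log2 fold changes from -0.11 to 0.52. The last of these, Bcl2l11-006, rests on 12, 16 and 14 counts in WT and 13, 36 and 26 in DICER1-ifKO (SE 0.33, edgeR adjusted p = 0.651).

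Bbc3, which encodes PUMA, varied more between libraries of a group than between groups. Bbc3-001 (chr7:16309616-16318205, plus strand) was at 5.96, 3.78 and 4.55 CPM in WT and at 6.30, 4.16 and 4.25 in DICER1-ifKO, and replicate 1 was the highest in each group. The means were 4.76 ± 1.11 and 4.90 ± 1.21 CPM (SD, n = 3 each). The log2 fold change of 0.05 had an SE of 0.19, the widest of the 9 genes (edgeR adjusted p = 0.956), and its interval ran from -21.0% to 35.3%. With 60 to 97 counts per library, counting error alone gave an SE of 0.135 on the log2 scale.

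The apoptosome genes also gave overlapping groups. Apaf1-002 (chr10:90989311-91082662, minus strand), the transcript of the scaffold, was at 18.05, 21.7 and 17.5 CPM in WT and at 19.0, 18.04 and 19.2 in DICER1-ifKO. WT replicate 2 was the highest of all libraries, and the other 5 lay between 17.5 and 19.2. The means were 19.1 ± 2.27 and 18.8 ± 0.639 CPM (SD, n = 3 each), a log2 fold change of -0.03 (SE 0.09, edgeR adjusted p = 0.954), or -1.74% with an interval from -13.7% to 11.9%.

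Casp9-001 (chr4:141793612-141815976, plus strand), the initiator caspase, was at 28.9, 27.1 and 26.0 CPM in WT and at 29.8, 28.2 and 29.6 in DICER1-ifKO. Only WT replicate 1 reached into the DICER1-ifKO range. The means were 27.3 ± 1.43 and 29.2 ± 0.882 CPM (SD, n = 3 each), a log2 fold change of 0.10 (SE 0.07, edgeR adjusted p = 0.681), or 7.19% with an interval from -3.19% to 18.7%. The log2 fold change was 0.065 without WT replicate 3. Of all 42 listed transcripts of the 9 genes, 38 were tested and 0 passed an adjusted p of 0.05 in edgeR (0.0777% of all 60470 transcripts tested did). At an unadjusted p below 0.05 there were 3, Mcl1-201, Bak1-001 and Bak1-003, beside 9.44% of all transcripts.

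**Figure D3:**
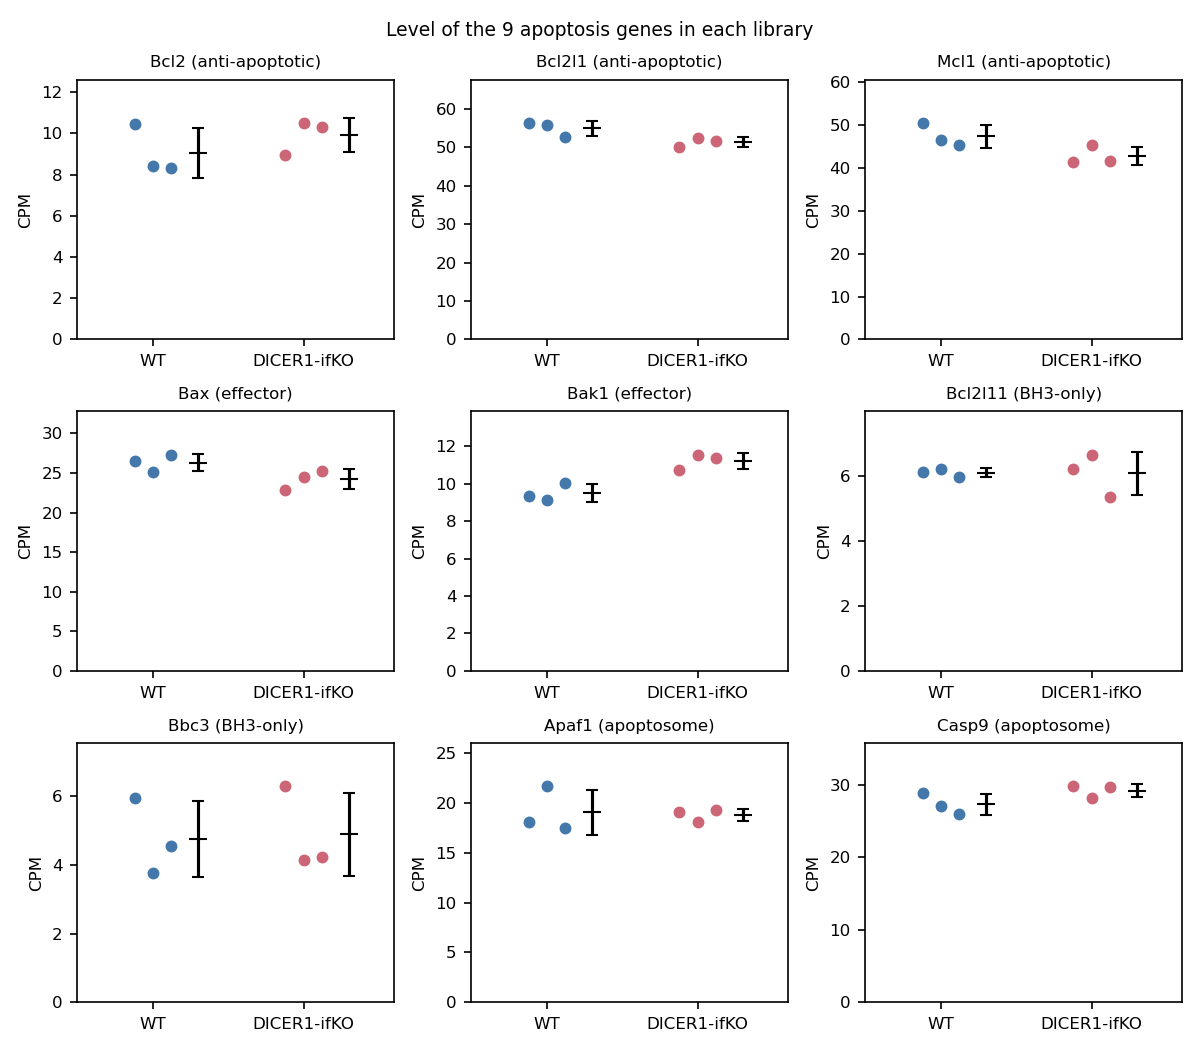
CPM of each gene in the 3 WT (blue) and 3 DICER1-ifKO (red) libraries, with mean and SD in black; each panel has its own axis from 0, and points in a group run from replicate 1 to 3. Bak1 is higher in all 3 DICER1-ifKO libraries (10.7 to 11.5 against 9.13 to 10.02 CPM), and Mcl1 and Bcl2l1 are lower, by small margins.

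Per kilobase of the representative transcript, the order of levels was the same in both groups. Bax was highest, at 30.3 CPM per kilobase in WT and 27.9 in DICER1-ifKO (means, n = 3 each), followed by Bcl2l1 (22.7 and 21.3), Mcl1 (13.9 and 12.5), Casp9 (7.01 and 7.50) and Bak1 (3.98 and 4.70). Apaf1 (2.96 and 2.92) and Bbc3 (2.63 and 2.70) came next, and Bcl2 (1.26 and 1.38) and Bcl2l11 (1.21 and 1.21) were lowest. Over the 6 libraries the ranges of neighbours in this order were separate, except for Apaf1 (2.71 to 3.37) with Bbc3 (2.08 to 3.47), and Bcl2 (1.15 to 1.46) with Bcl2l11 (1.07 to 1.32). The effector Bax and the inhibitor Bcl2 thus lay at opposite ends of the order, with Bcl2 next to lowest in both groups. These levels depend on the transcript chosen: Bax-201 is 867 bases long and Bcl2-001 7191.

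The balance of inhibitor and effector mRNA was described as log2 ratios per kilobase. The ratio of Bcl2 to Bax was -4.39, -4.63 and -4.77 in WT and -4.40, -4.27 and -4.35 in DICER1-ifKO. The means differed by 0.25, and the groups overlapped because WT replicate 1 lay just above DICER1-ifKO replicate 1. Fitted with an offset for transcript length and GC content, the log2 fold change of Bcl2 was 0.108 (0.149 without it) and that of Bax -0.104 (-0.116 without it). The ratio was not recomputed with that offset. The other 5 pairs were added after the values of the genes had been seen and share genes with each other, so they are descriptions. The ratio of Mcl1 to Bak1 was 1.91, 1.83 and 1.66 in WT and 1.43, 1.45 and 1.36 in DICER1-ifKO, without overlap and with a difference of means of -0.39. The ratio of Bcl2l1 to Bak1 was 2.57, 2.59 and 2.38 in WT and 2.21, 2.17 and 2.16 in DICER1-ifKO, again without overlap (difference -0.33). The lack of overlap in both ratios follows from the values above, since Mcl1 and Bcl2l1 were lower and Bak1 higher in every DICER1-ifKO library. For Bcl2 to Bak1 (-0.10), Bcl2l1 to Bax (0.02) and Mcl1 to Bax (-0.03) the groups overlapped.

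**Figure D4:**
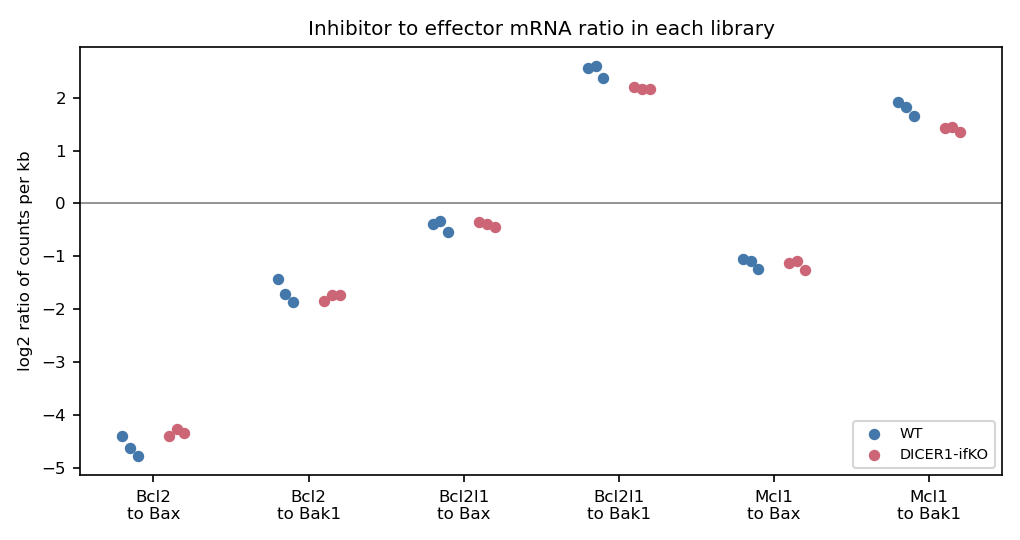
Log2 ratio of inhibitor to effector mRNA per kilobase in each WT (blue) and DICER1-ifKO (red) library, for the 6 pairs of 3 inhibitors and 2 effectors. The groups are separate for Bcl2l1 to Bak1 and Mcl1 to Bak1 and overlap for the other 4 pairs.

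Another 72 genes of the apoptosis pathway were grouped by role, and 66 of them were tested. At an adjusted p below 0.05 edgeR called 0 higher and 0 lower, and DESeq2 called 0 of the 17 to which its filter left an adjusted p. At an unadjusted p below 0.05 there were 3 (Cycs, Bok and Tnfrsf1a), or 4.55% of the 66, beside 10.4% of all genes. Log2 fold changes were positive in 30 and negative in 36, with a median of -0.01, and the groups did not overlap in 8 (12.1%), 4 in each direction, beside 16.1% of all genes.

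Among inhibitors related to Bcl2, the median log2 fold change of the 4 tested was -0.21. Of these, 3 were near-identical copies of Bcl2a1 with similar counts in each library (4 to 18, SE 0.37 to 0.39). Their reads may be shared, so the median may count the same reads more than once. Bcl2l2, the BCL-W gene, was at 90.0 ± 2.29 CPM in WT and 95.3 ± 1.31 in DICER1-ifKO (SD, n = 3 each; log2 fold change 0.08, edgeR adjusted p = 0.601). The median of the 3 effector-type and other family members was -0.22. Bok, a relative of Bax and Bak1, was at 27.5, 28.8 and 28.1 CPM in WT and at 25.8, 22.2 and 24.8 in DICER1-ifKO, lower in every library (log2 fold change -0.22, SE 0.08, edgeR adjusted p = 0.293). Bcl2l12 had a log2 fold change of -0.28 (SE 0.15, edgeR adjusted p = 0.529). The 8 other BH3-only and related genes had a median of -0.01, with Hrk, a BH3-only gene of neurons, at 0.09 (SE 0.06, edgeR adjusted p = 0.673) and Bnip3 at -0.08 (adjusted p = 0.595).

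All 5 tested mitochondrial factors had negative log2 fold changes, with a median of -0.07, beside 49.0% positive over all genes tested. Cycs, the gene of cytochrome c, which serves the respiratory chain as well as the apoptosome, had the smallest adjusted p of the list. It was at 158, 150 and 143 CPM in WT and at 126, 136 and 130 in DICER1-ifKO, without overlap. The log2 fold change was -0.20 (SE 0.05, edgeR adjusted p = 0.130), and without the filter on low counts, which changes the genes tested, it was -0.19 with an adjusted p of 0.0437. DESeq2 gave -0.19 with an adjusted p of 0.0502, just above the threshold. Over all 14 alternatives the log2 fold change of Cycs kept its sign, and leaving out 1 library gave edgeR adjusted p from 0.101 to 0.491. Diablo, which relieves caspases of their inhibitors, was at -0.07 (edgeR adjusted p = 0.799). Htra2, Endog and Aifm1 were at -0.07, -0.03 and -0.02 (edgeR adjusted p = 0.861, 0.955 and 0.943), and their groups overlapped.

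The 8 tested caspases had a median of 0.01 and were split 4 to 4, with Casp8, the initiator at death receptors, at 0.17 (SE 0.14, edgeR adjusted p = 0.743). The 9 inhibitor of apoptosis genes had a median of -0.03, and Naip6, one of a set of near-identical copies, was at -0.44 (SE 0.25, edgeR adjusted p = 0.585). The p53 axis, 10 genes, had a median of -0.01. Trp53 itself was at 25 ± 0.405 CPM in WT and 26.1 ± 0.530 in DICER1-ifKO (SD, n = 3 each; edgeR adjusted p = 0.801). In the death receptor arm (8 tested, median 0.02) Tnfrsf1a, the main TNF receptor, was at 4.17, 4.15 and 4.37 CPM in WT and at 5.13, 6.38 and 5.08 in DICER1-ifKO. It was higher in every DICER1-ifKO library (log2 fold change 0.38, SE 0.15, edgeR adjusted p = 0.364). The 4 substrates and DNA fragmentation genes had a median of 0.07, with Dffb at 0.15 (SE 0.12, edgeR adjusted p = 0.711) and Parp1 at 0.08 (adjusted p = 0.670). The 7 FOXO and JNK genes, which feed into Bcl2l11 and Hrk, had a median of 0.03, with Foxo3 at 0.13 (SE 0.07, edgeR adjusted p = 0.508) and Mapk8 at 0.06 (adjusted p = 0.737).

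**Figure D5:**
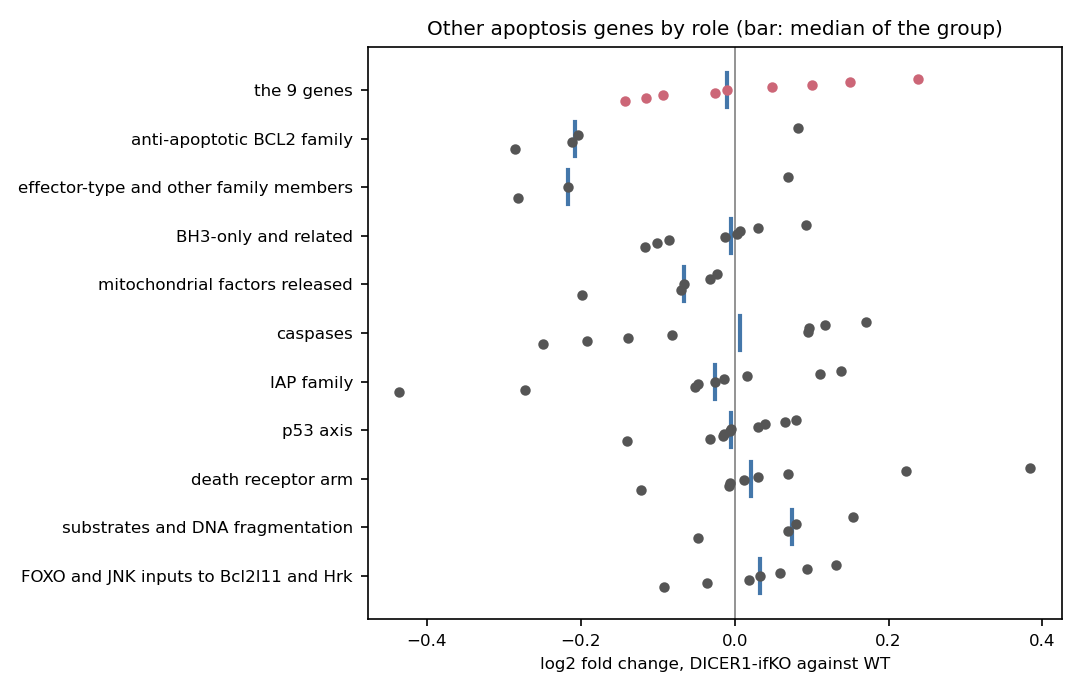
Log2 fold change in DICER1-ifKO against WT (x axis) of the 9 genes (red) and of 66 other apoptosis genes by role (grey), with the median of each group as a blue bar. All 5 mitochondrial factors lie below 0, Cycs at -0.20 and the others at -0.07 to -0.02. No gene in the plot passed an adjusted p of 0.05.

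Genes whose log2 CPM followed a member over the 6 libraries were taken from 12820 genes by Pearson's r, as a description. For Bcl2 these were Usp35 (0.979), Osmr (0.977) and Tmem69 (0.975). For Bcl2l11 they were Pard3b (0.992), Gpr165 (0.982) and Cdk13 (0.972). For Mcl1 they were Vstm2a (0.991), Eif5a2 (0.986) and Rragb (0.982). With 6 libraries, 11, 14 and 25 of the 12820 genes respectively exceeded 0.95, so such values were not particular to the genes named. The number that would exceed 0.95 by chance was not tested.

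Counts over representative transcripts summed to 11832794 to 20677845 per library. Dicer1 was at 57.8 ± 3.63 CPM in WT and 59.7 ± 2.82 in DICER1-ifKO (SD, n = 3 each; edgeR adjusted p = 0.849), but its single listed transcript spans the whole gene and does not check the deletion. Reads assigned to Esr1 were 2.98-fold higher in DICER1-ifKO (edgeR adjusted p = 7.5e-06). The creERT2 transgene, present only in DICER1-ifKO, also holds an estrogen receptor domain. Whether it supplied these reads was not tested, so the value cannot be read as a change of the Esr1 gene itself. The summed markers of dentate granule cells were at 285 to 295 CPM in WT and 252 to 274 in DICER1-ifKO, and 1 of the 4, Calb1, was called lower (131 ± 3.88 and 109 ± 6.87 CPM, SD, n = 3 each; edgeR adjusted p = 0.0323). Without Calb1, a sum added after seeing the data, the other 3 overlapped (153 to 168 CPM in WT and 149 to 164 in DICER1-ifKO), with Prox1 at 87.1 ± 2.77 and 87.6 ± 1.71 CPM. Summed markers of pyramidal neurons (1248 to 1312 and 1202 to 1324 CPM), inhibitory neurons, astrocytes, microglia, oligodendrocytes and their precursors, endothelium, erythrocytes, choroid plexus (10.3 to 23.0 and 2.73 to 18.9 CPM) and of thalamus and striatum overlapped between groups, with no marker at 0. A sum can hide single markers. Aqp4, Tmem119 and Adora2a were lower in every DICER1-ifKO library (edgeR adjusted p = 0.254, 0.460 and 0.795). Gad2 was higher in every one (0.618), beside 16.1% of all genes without overlap.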

How the data were processed

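Counts per transcript were deposited by the authors for 6 libraries, with coordinates (GRCm38) and, per the file headers, a raw and a normalised count for each of 76938 transcripts. Per the submitters' processing notes, the tools were TopHat2 2.0.6, Bowtie2 2.0.5, SAMtools 0.1.18, CASAVA 1.8.2 and, with no version, DESeq2. For the counter, the annotation release and the strand setting, nothing is given in the sources used here. The deposited normalised signal is the count over a library-wide factor and was not tested. The labels call the replicates of a group biological.

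Transcripts of a gene share reads, so the transcript of highest mean count stood for each symbol; Apaf1-001 and Apaf1-002 tied, and the first listed was taken. The design had allowed for counts per gene. Of 25896 symbols, 17405 passed edgeR's filterByExpr (minimum count 10). The test was the two-sided quasi-likelihood F-test of edgeR 4.0.16 (R 4.3.3), with TMM scaling, genotype alone in the model, Benjamini-Hochberg adjustment and a threshold of 0.05. SE was derived from the log2 fold change and its F statistic, and 95% intervals from that SE. The ratio of the SE from counting error alone to a member's fitted SE was 0.684 to 0.884. Lengths and 3′ UTRs came from GENCODE M21 transcripts of identical span for 7 of 9 genes and from the closest for Bax and Mcl1.

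The named genes are all 9 members, the 2 pathway genes with the smallest p in each role group (not all are described) and, for Bcl2, Bcl2l11 and Mcl1, the 3 genes with the highest correlation. Members, pathway list, marker lists and microRNA families were chosen with earlier results of these data known. The alternatives were other scaling factors (with DESeq2 1.42.0 as a further test), no filter, sums over transcripts, all transcripts, a replicate block, a length and GC offset, and leaving out each library. Of the 22 microRNA families, miR-124 was named but not searched, for lack of a sequence.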

Additional observations from a re-analysis of the deposited data

How the results depend on the processing

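Of 126 recomputed log2 fold changes (9 genes, 14 alternatives), 119 kept their sign and 7 reversed, in Bcl2l11, Bbc3 and Apaf1, whose values lay near 0. Summing over transcripts gave Bcl2l11 0.017. Leaving out 1 library gave -0.083 to 0.081 for Bcl2l11, -0.15 to 0.22 for Bbc3, -0.091 to 0.083 for Apaf1, 0.090 to 0.25 for Bcl2, 0.065 to 0.14 for Casp9, 0.21 to 0.28 for Bak1, -0.15 to -0.078 for Bax, -0.12 to -0.076 for Bcl2l1 and -0.18 to -0.10 for Mcl1. In each alternative 0 members were called, and the smallest edgeR adjusted p was 0.366 (Mcl1 without WT replicate 2). The count of called genes of the pathway list was 0 except for 1 (Cycs) without the low-count filter. Over all genes the count moved from 28 to 151 without that filter, 7 with sums over transcripts, 47 of all transcripts and 68 with DESeq2, and leaving out 1 library gave 6 (without DICER1-ifKO replicate 1) to 105 (without WT replicate 2); the cause was not tested. With a replicate block 22 genes and 0 members were called (Bak1 edgeR adjusted p = 0.466). Same-numbered libraries did not deviate together (correlations -0.07, 0.03 and -0.09), so the numbers were not taken as pairs. Log2 fold changes rose with transcript length across 16500 genes (Spearman rho 0.20, a description). Per library, the rho of length with the deviation from the mean over libraries was -0.27, 0.07 and -0.11 in WT replicates 1 to 3. In DICER1-ifKO it was 0.11, 0.14 and 0.08. The most negative library, WT replicate 1, also had the fewest counts (11832794). The length and GC offset called 34 genes and 0 members. The BH3-only genes, with 60 to 120 counts per library, had the widest intervals; counting error alone gave SEs of 0.119 (Bcl2l11) and 0.135 (Bbc3) beside fitted SEs of 0.13 and 0.19.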
